A study of Mus musculus with 3 samples.

Results

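The cells described are splenic B cells with high Klf2, taken as the top 25% of B cell barcodes by the summed UMIs (unique molecular identifiers, 1 per captured transcript) of Klf2, Tsc22d3, Ypel3, S100a10, Emp3 and Vim per 10000 UMIs. A barcode entered if 1 hashtag clearly dominated and at least 1 UMI of Cd79a, a subunit of the B cell receptor, was present. Of 2836 barcodes with transcripts, 1905 carried a single hashtag and 1889 of those also carried Cd79a. The top 25% held 473 Klf2-high barcodes, and the remaining 1416 barcodes are called the other B cells. The Klf2-high barcodes were chosen by the measured UMIs of these 6 genes, so the values of the 6 are given as a description and support nothing.

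The spleens came from 3 LDHA-deficient mice and 3 LDHA-sufficient mice. The study asks what LDHA, the lactate dehydrogenase subunit that turns pyruvate into lactate, does in B cells that enter the germinal centre. Live B cells were sorted with a gate on GL7, a marker of activated and germinal centre B cells, stained with 1 antibody hashtag per mouse, mixed, and run in 1 lane with a 10x 5′ kit that read transcripts, hashtags and immunoglobulin heavy chains. The 6 mice are the replicates, so p-values measure the spread between animals. The sources used here do not give how LDHA was deleted, in which cells, or the age of the mice, and the sort gate sets which B cells could be seen. The cell type label of the hashtag and heavy chain libraries reads HSPCs, whereas the protocols and the transcripts are those of B cells.

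KLF2 is a zinc finger transcription factor that resting lymphocytes keep on, downstream of FOXO1, and shut off within hours of antigen receptor signalling. It promotes receptors for recirculation, including S1pr1 and Itgb7. In mice, B cells without KLF2 shift from a follicular towards a marginal zone phenotype and lose integrin beta 7. Among the other genes of the score, Tsc22d3 encodes the glucocorticoid-induced leucine zipper, S100a10 the partner of annexin A2, Emp3 a small membrane protein and Vim the intermediate filament vimentin.

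The Klf2-high barcodes made up 25.9%, 26.5% and 23.4% of the barcodes of LDHA-deficient mice 1, 2 and 3, and 21.2%, 25.5% and 27.8% of those of LDHA-sufficient mice 1, 2 and 3. The exact binomial 95% intervals, which cover counting error only, ran from 17.0% to 33.6% over the 6 mice. The genotypes overlapped, with means of 25.3% ± 1.63 in LDHA-deficient mice and 24.9% ± 3.37 in LDHA-sufficient mice (SD, n = 3 each). The difference of 0.401 percentage points gave p = 0.8 in an exact two-sided permutation test, in which 3 mice against 3 cannot go below 0.1. Its direction turned under several other settings. The difference was -5.13 points (exact p = 0.1) without barcodes with a short list of germinal centre or cycling markers. That list was chosen after seeing the data.

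Summed per mouse, the Klf2-high barcodes held 255935 to 537269 UMIs and the other B cells 943626 to 2185900. Median UMIs per barcode averaged 3693 ± 267 in the Klf2-high set and 4222 ± 449 in the other B cells (SD, n = 6 mice). That difference did not pass the test (exact two-sided sign-flip permutation p = 0.0625, 0.167 after Benjamini-Hochberg adjustment over 8 paired values).

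The score is a range with no gap at the limit. The lowest Klf2-high barcode scored 13.18 and the highest outside scored 13.16, with 49 Klf2-high barcodes within 1 unit above the limit and 76 barcodes within 1 unit below it. The median score was 18.7 in Klf2-high barcodes and 5.22 in the other B cells. A Klf2-high barcode held a median of 7 UMIs of the 6 genes and as few as 2, so single barcodes near the limit were placed by 1 or 2 molecules. In the other B cells the median was 2 UMIs, and 185 barcodes (13.1%) held none.

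Klf2 was read in 89.2% of Klf2-high barcodes and 40.5% of the other barcodes, and its level per mouse (lowest, median, highest) was 523, 620 and 638 raw CPM in Klf2-high barcodes against 77.6, 121 and 153 raw CPM in the other B cells. Raw CPM are UMIs per 1000000 UMIs of a summed set, with no further scaling. Vim was at 351, 477 and 672 raw CPM in Klf2-high barcodes, against 63.5, 90.9 and 106 in the other B cells. S100a10 was at 313, 389 and 667, against 88.9, 122 and 135. The remaining genes of the score showed the same order, with medians of 257 against 68.8 for Emp3, 216 against 96.1 for Ypel3 and 131 against 32.4 for Tsc22d3. No mouse overlapped for any of the 6, as the choice of barcodes fixes.

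**Figure D1:**
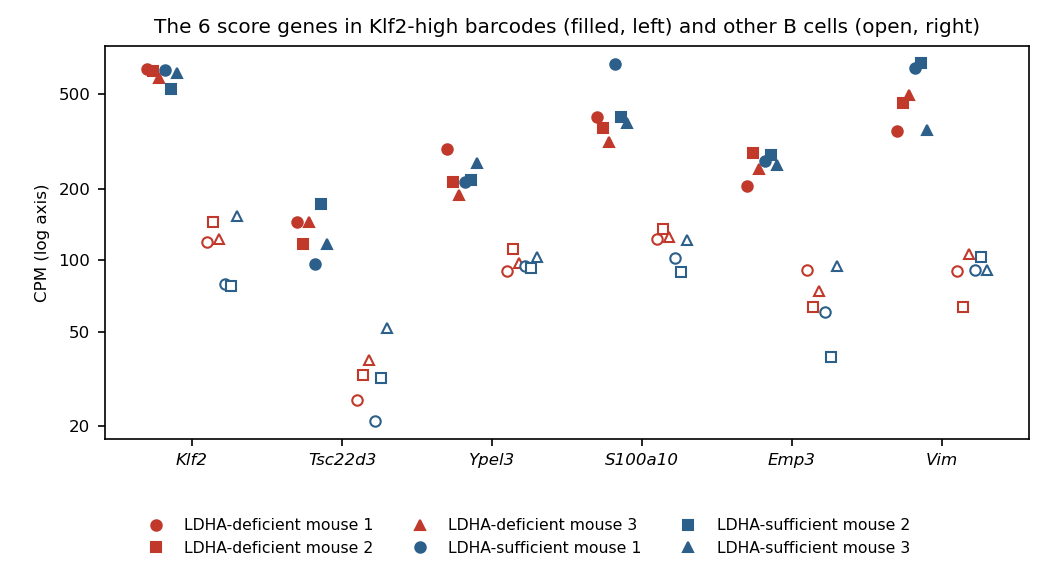
Levels of the 6 genes that define the score, in raw CPM on a log axis, for each mouse in Klf2-high barcodes (filled, left) and in the other B cells (open, right). Klf2 lies between 523 and 638 in Klf2-high barcodes and between 77.6 and 153 in the other B cells, and the plot describes the choice of barcodes.

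Genes outside the score were tested on UMIs summed per mouse and set, 12 sums in all, with the mouse as a block, by edgeR's quasi-likelihood test at a Benjamini-Hochberg adjusted p under 0.05. The 6 genes were left out of the totals. Of 7443 genes, 282 differed (3.79%), 184 of them higher (2.47%) and 98 lower (1.32%) in Klf2-high barcodes, and the median log2 difference over all genes was -0.01. Levels below are CPM scaled by TMM, or raw CPM where stated, given as lowest, median and highest over the 6 mice, and differences are log2 of Klf2-high over other B cells ± SE. Every test reads the barcodes that the score ranked, so a gene that varies with any of the 6 moves with the division.

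Rises and falls were ranked among called genes with the same direction in 6 of 6 mice and a mean of at least 30 CPM. The 12 largest rises in Klf2-high barcodes by this rule included Itgb7, S1pr4 and Klf3. Itgb7, the integrin beta 7 chain that pairs with alpha 4 for homing to the gut, stood at 74.6, 106 and 126 CPM in Klf2-high barcodes, against 26.6, 36.9 and 57.4 CPM in the other B cells. It rose by 1.37 ± 0.15 with an adjusted p of 1.47e-05, and the lowest Klf2-high mouse lay above the highest mouse of the other B cells. S1pr4, a sphingosine 1-phosphate receptor of lymphoid cells, stood at 68.1, 80.7 and 95.3 CPM, against 21.9, 30.1 and 46.2 CPM, and rose by 1.36 ± 0.17 (adjusted p 3.7e-05). Klf3, a repressor of the same zinc finger family, stood at 182, 192 and 264 CPM, against 58.0, 105 and 121 CPM, and rose by 1.23 ± 0.13 (adjusted p 1.47e-05). The groups did not overlap for either gene. Over all genes tested, 127 (1.71%) showed no overlap between the 6 sums of each set.

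KLF proteins bind CACCC boxes, so the 250 bases before the RefSeq start of these genes are shown (GRCm38.p6, gene strand, 5′ to 3′). Itgb7 lies at chr15:102215995-102231944 on the minus strand with its window at chr15:102231936-102232185. S1pr4 lies at chr10:81497747-81500132 on the minus strand with its window at chr10:81500138-81500387. Klf3 lies at chr5:64803388-64832901 on the plus strand with its window at chr5:64803271-64803520. The gene starts of Itgb7 and Klf3 given here lie inside their windows. The bases after the RefSeq start of S1pr4 were not found in the transcripts of that gene used as a check. Capitals mark each CACCC or its complement GGGTG.
Itgb7: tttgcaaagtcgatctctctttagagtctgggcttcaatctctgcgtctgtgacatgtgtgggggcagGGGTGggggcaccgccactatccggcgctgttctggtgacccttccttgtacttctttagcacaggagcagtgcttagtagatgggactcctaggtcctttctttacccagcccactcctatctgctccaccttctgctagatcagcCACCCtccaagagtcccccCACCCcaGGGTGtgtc
S1pr4: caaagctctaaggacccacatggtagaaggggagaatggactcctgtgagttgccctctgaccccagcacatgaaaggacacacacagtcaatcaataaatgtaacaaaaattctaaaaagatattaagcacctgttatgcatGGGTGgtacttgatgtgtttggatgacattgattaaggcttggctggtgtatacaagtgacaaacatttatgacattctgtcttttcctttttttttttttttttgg
Klf3: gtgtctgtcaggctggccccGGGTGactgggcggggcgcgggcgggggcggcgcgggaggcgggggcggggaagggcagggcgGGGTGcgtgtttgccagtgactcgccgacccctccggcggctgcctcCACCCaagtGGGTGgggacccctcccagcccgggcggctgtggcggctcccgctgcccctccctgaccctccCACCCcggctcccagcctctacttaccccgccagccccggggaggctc
The letters occurred 4 times in the window of Itgb7, 1 time in that of S1pr4 and 5 times in that of Klf3. They also occurred in 52.0% of all 32851 RefSeq promoter windows of this length and before 54.5% of all genes. Of the 12 largest rises, 11 had a window in the table and 10 of them held the letters, against 9 of the 12 largest falls. The FOXO motif GTAAACA or its complement was in 3.17% of all windows and in none of these 3.

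The largest rise by this rule was that of Myadm, which encodes a membrane protein of the lymphoid and myeloid lineages. It stood at 45.4, 60.2 and 101 CPM in Klf2-high barcodes, against 10.5, 18.1 and 26.8 CPM in the other B cells (1.75 ± 0.28, adjusted p 0.00248). Selplg, the selectin ligand PSGL-1, stood at 69.5, 79.7 and 107 CPM, against 24.3, 36.5 and 54.5 CPM (1.15 ± 0.19, adjusted p 0.00182). The guanine nucleotide exchange factors Arhgef18 and Arhgef3 rose by 1.07 ± 0.14 and 1.04 ± 0.17. The LIM domain adaptor Pdlim1 rose by 1.35 ± 0.24, Fry, a large protein tied to microtubules and NDR kinases, by 1.27 ± 0.21, the poly(A) polymerase Tent5a by 1.17, the 14-3-3 protein Sfn by 1.08 and Gucd1 by 1.07. Each of these 12 genes was higher in 6 of 6 mice, as the choice of the 12 required.

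The 12 largest falls by the same rule included the marginal zone genes Cr2 and Dtx1 and several genes of DNA replication. Some called genes outside the rule fell further, among them Gcsam (-2.12), Rgs13 (-1.74), S1pr3 (-1.69) and Dtl (-1.28), which are described with their lists. Cr2, which encodes complement receptors CD21 and CD35 and is highest on marginal zone B cells, stood at 277, 340 and 467 CPM in Klf2-high barcodes, against 517, 730 and 1009 CPM in the other B cells. It fell by 1.01 on the log2 scale (SE 0.08, adjusted p 4.61e-07) and the sets did not overlap. Dtx1, a NOTCH target of marginal zone B cells, stood at 44.3, 53.8 and 61.6 CPM, against 101, 121 and 161 CPM, and fell by 1.23 (SE 0.14, adjusted p 1.76e-05). Mcm2, a subunit of the replicative helicase, stood at 19.3, 31.7 and 46.9 CPM, against 36.0, 53.5 and 122 CPM, and fell by 0.92 (SE 0.19, adjusted p 0.0067). The Mcm2 ranges overlapped, although it was lower in 6 of 6 mice, which the choice of the 12 required.

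Further falls were the DNA methylation reader Uhrf1 (-1.06 ± 0.27), the CDC7 partner Dbf4 (-1.05), the chromatin remodeller Hells (-0.98), the dUTPase Dut (-0.96 ± 0.17), the clamp loader subunit Rfc3 (-0.93), the spindle checkpoint gene Mad2l1 (-0.91), the fucosyltransferase Fut8 (-0.91), Mdfic (-0.93) and the intermediate filament gene Bfsp2 (-0.93). Each was lower in 6 of 6 mice, again as the choice required. Some falls were uneven between genotypes. In LDHA-deficient mice 1, 2 and 3 Mad2l1 was at 19.5, 34.7 and 19.3 CPM in Klf2-high barcodes, against 26.8, 35.3 and 22.4 CPM. In LDHA-sufficient mice 1, 2 and 3 it was at 18.9, 35.7 and 22.4 CPM, against 68.6, 89.9 and 53.3 CPM. In the other B cells Mad2l1, Rfc3, Dbf4 and Fut8 were lower in LDHA-deficient mice (edgeR adjusted p 0.00566 to 0.0178). Uhrf1, Hells, Dut, Mdfic and Bfsp2 were not called there. The difference of genotype effects passed for H2afx alone.

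**Figure D2:**
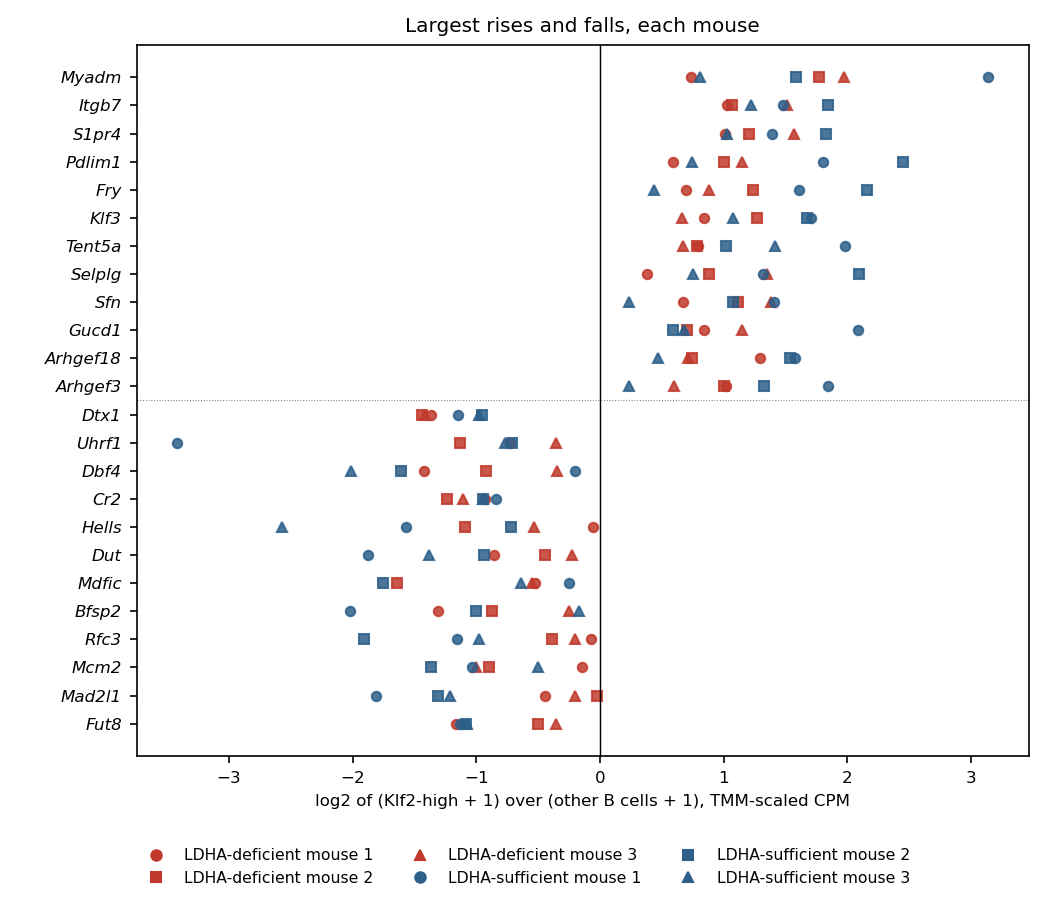
Log2 ratio of Klf2-high barcodes over the other B cells in each mouse, from TMM-scaled CPM plus 1, for the 12 largest rises (top) and the 12 largest falls (bottom). All 6 mice lie right of 0 for Myadm through Arhgef3 and left of 0 for Dtx1 through Fut8, as the choice of genes required. Uhrf1 in LDHA-sufficient mouse 1 is at -3.42.

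The number of calls fell when any 1 LDHA-sufficient mouse was left out. Without LDHA-sufficient mouse 1, 2 or 3, 92, 85 or 94 genes were higher and 31, 28 or 36 lower. Of the 12 largest falls, 7, 3 or 6 then kept their call. Without LDHA-deficient mouse 1, 2 or 3, 10, 8 or 11 of these 12 kept it. DESeq2 called 89 higher and 26 lower, and 197 and 118 were called once barcodes with a short list of markers of other cells were removed.

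Among 14 tested genes of lymphocyte trafficking, 5 rose in Klf2-high barcodes and 0 fell, with a median log2 difference of 0.39 against -0.01 for all genes. Their summed level was 2137, 2291 and 2446 raw CPM, against 1258, 1645 and 1719, and was higher in 6 of 6 mice without overlap. The 5 included Itgb7, S1pr4 and Selplg. Ccr7, the receptor for chemokines of the T zone, stood at 79.0, 127 and 177 CPM, against 34.7, 76.0 and 99.5 CPM (0.96 ± 0.22, adjusted p 0.0416). The egress receptor S1pr1, a known KLF2 target singled out after its value was seen, did not pass (0.24 ± 0.13, adjusted p 0.356, higher in 4 of 6 mice).

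Of 25 tested genes of quiescence and the FOXO1 programme, 6 rose and 0 fell, with a median of 0.29. Their summed level was 3237, 3751 and 3970 raw CPM, against 2624, 3054 and 3330, and was higher in 6 of 6 mice. Besides Klf3, Txnip, a brake on glucose uptake, stood at 239, 251 and 488 CPM, against 119, 162 and 240 CPM (0.80 ± 0.11, adjusted p 0.000161). Cdkn1b, the cyclin-dependent kinase inhibitor p27, stood at 131, 141 and 154 CPM, against 60.3, 89.8 and 113 CPM (0.72 ± 0.15, adjusted p 0.00708). Slfn2, which keeps lymphocytes quiescent in mice, rose by 0.53 (adjusted p 0.00475). Foxo1 itself, named after its value was seen, had a difference of 0.15 ± 0.12 (adjusted p 0.622). Of 6 tested genes of the glucocorticoid response, Zfp36l2, which also belongs to the quiescence list and encodes an mRNA decay factor, rose by 0.73 (adjusted p 0.0384), and the median was -0.01.

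Cell cycle genes were mostly lower in Klf2-high barcodes. All 35 tested S phase genes had a negative difference (median -0.75), and 9 of them fell. Pcna, the replication clamp, stood at 58.8, 86.3 and 123 CPM in Klf2-high barcodes, against 113, 131 and 238 CPM (-0.77 ± 0.15, adjusted p 0.00475). Tipin, of the replication fork protection complex, fell by 0.84, and Dtl, of an ubiquitin ligase for replication licensing factors, fell by 1.28. Of 42 tested G2 and M phase genes 0 were called in either direction by the adjusted edgeR test, although 39 of the 42 had a negative difference (median -0.42). Their median per mouse was -0.011, 0.18 and 0.60 in LDHA-deficient mice and -2.03, -0.72 and -0.28 in LDHA-sufficient mice, a difference between genotypes that was not tested. The sums of this list overlapped, at 2308, 3282 and 4631 raw CPM in Klf2-high barcodes against 2764, 3453 and 8473. Mki67, the proliferation antigen, named after its value was seen, had a difference of -0.72 ± 0.51 (adjusted p 0.593). The set therefore still held mitotic transcripts and is called Klf2-high here, not quiescent.

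Of 25 tested MYC targets and nucleolar genes, which serve ribosome assembly and growth, 7 fell and 0 rose (median -0.41). Their sum was lower in 6 of 6 mice, at 3860, 4027 and 5370 raw CPM against 4948, 5165 and 6194, though the ranges overlapped. The nucleolar protein gene Ncl fell by 0.39 (SE 0.09, adjusted p 0.0128), the nucleoside diphosphate kinase Nme1 by 0.47, the RNA helicase Ddx21 by 0.41 and Odc1, the first enzyme of polyamine synthesis, by 0.67. In glycolysis without Ldha, 1 of 13 fell, the phosphofructokinase Pfkp (-0.84, adjusted p 0.0132), with a median of -0.16. None of 18 genes of the TCA cycle (median -0.06), 80 of nuclear oxidative phosphorylation (-0.10), 77 of cytoplasmic ribosomal proteins (-0.02) or 9 of the BCL2 family (-0.05) was called by edgeR, where 1200 of all 7443 genes had an unadjusted p under 0.05. Of 13 mitochondrially encoded genes, mt-Nd1 fell by 0.30.

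Of 18 tested genes induced by the antigen receptor or CD40, 5 fell and 0 rose (median -0.46). They included Cd83, a surface activation marker (-0.61 ± 0.12, adjusted p 0.00568), the transcription factors Irf4 (-0.68, adjusted p 0.0192) and Egr1 (-0.89), and the adhesion molecule Icam1 (-0.75). Of 8 genes of the dissociation stress response, Jund rose by 0.48 and the median was 0.19. Among 22 genes of antigen receptor signalling, Cd79a (0.29), Cd79b (0.31) and the kinase Syk (0.38) rose and Cr2 fell (median 0.12). Cd79a was part of the entry rule for both sets. Of 19 cytokine and survival receptor genes, lymphotoxin beta, Ltb (0.43), and the interleukin 4 receptor chain Il4ra (0.49) rose (median 0.22). Of 10 genes of MHC class II, H2-Ob, a chain of the peptide-loading inhibitor, rose by 0.42 (median 0.15). Of 19 interferon response genes, Isg15 (-1.03) and Ifit2 (-1.17) fell, while the median of 0.02 was close to that of all genes.

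Vim, S100a10 and Emp3 belong to a wider set of S100, annexin and cytoskeletal genes, of which 27 others were tested. In Klf2-high barcodes 8 rose and 0 fell, with a median of 0.33. Lsp1, an actin-binding protein of leukocytes, stood at 429, 526 and 670 CPM, against 272, 289 and 318 CPM (0.87 ± 0.10, adjusted p 1.47e-05). Flna, the actin crosslinker filamin A, stood at 286, 345 and 382 CPM, against 138, 170 and 205 CPM (0.98 ± 0.11, adjusted p 1.75e-05). Neither overlapped. Anxa6, a calcium-dependent membrane binding protein, rose by 0.99 ± 0.14, and Tagln2, an actin-binding transgelin, by 0.75 ± 0.13. The largest estimates of this list, S100a6 (2.72 ± 0.96, adjusted p 0.257) and Ahnak (2.38 ± 0.56, adjusted p 0.107), both named after their values were seen, varied too much between mice to pass.

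Markers of B cell subsets were read as lists. Of 7 follicular markers 4 rose and 0 fell (median 0.35), and their sum was 2373, 2678 and 2861 raw CPM, against 1398, 1964 and 2422, with overlap. With the S100a10 trio alone, described below, 2 of 7 rose (median 0.15). The 4 included Ccr7, Il4ra and Ighd, the constant region of IgD (0.33 ± 0.09, adjusted p 0.0416). Ccr7 and Il4ra also stand in the lists above. Of 8 marginal zone markers, 5 fell and 1 rose (median -0.73), and the sum was lower in 6 of 6 mice without overlap, at 999, 1075 and 1187 raw CPM against 1403, 1663 and 1893. Next to Cr2 and Dtx1, S1pr3, the sphingosine 1-phosphate receptor of marginal zone B cells, stood at 6.29, 7.20 and 14.0 CPM, against 16.6, 31.4 and 39.7 CPM (-1.69 ± 0.31, adjusted p 0.0031). Fewer marginal zone cells in the set and less of these transcripts per cell cannot be told apart from summed UMIs.

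Of 8 germinal centre markers tested, 2 fell (median -1.87). Rgs13, a brake on chemokine receptor signalling, stood at 11.2, 14.2 and 23.2 CPM, against 20.3, 41.5 and 114 CPM (-1.74 ± 0.31, adjusted p 0.00475), and Gcsam, a germinal centre adaptor, fell by 2.12 (adjusted p 0.0415). The Gcsam call was lost without LDHA-deficient mouse 2 or 3 or LDHA-sufficient mouse 2 or 3 (adjusted p 0.0579 to 0.111). The list median per mouse was 0.59, -0.98 and -0.0067 in LDHA-deficient mice and -2.33, -2.95 and -2.01 in LDHA-sufficient mice. This difference between genotypes was not tested, and in LDHA-deficient mouse 1 the markers were not lower on balance. The list sum was 127, 177 and 182 raw CPM in Klf2-high barcodes against 141, 343 and 1193. Of 6 transitional markers, Cd24a fell by 0.41 and the median was 0.34. Of 5 memory B markers 0 were called (median 0.02). Of 3 tested B-1 markers, Spn, the sialoprotein CD43, rose, at 25.2, 37.2 and 96.0 CPM against 17.4, 22.1 and 24.9 CPM (1.02 ± 0.24, adjusted p 0.0204). The other B-1 markers were not called: Bhlhe41, a transcription factor of B-1 cells, had a difference of 1.11 ± 0.45 (adjusted p 0.276) and the aryl hydrocarbon receptor Ahr of -0.78 ± 0.32 (adjusted p 0.208). The 96.0 CPM of Spn belong to LDHA-sufficient mouse 2, whose Klf2-high barcodes also held 779 raw CPM of NK markers, against at most 39.1 in the other mice. Without that mouse Spn was at 0.68 (adjusted p 0.204), and without barcodes with a short list of markers of other cells at 1.03 (adjusted p 0.0281). Among 5 markers of the B lineage, Cd79a and Cd79b rose (median 0.18).

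Of 5 plasma cell markers, Irf4 and Edem1, a factor of protein disposal in the endoplasmic reticulum (-0.73), fell (median -0.73). Jchain, the joining chain of secreted IgM and IgA, stood at 173, 205 and 247 CPM in Klf2-high barcodes, against 277, 1820 and 3899 CPM, but its difference of -2.68 ± 0.56 did not pass (adjusted p 0.0835). Markers of non-B cells were present in both sets. The 8 myeloid markers gave 1302 UMIs in the 473 Klf2-high barcodes and 8756 in the 1416 other B cells. In the Klf2-high set 309 of them lay in 1 barcode, 11 barcodes held 10 or more, and Cd14 was at 0. Their summed level was 234, 420 and 910 raw CPM, against 219, 400 and 5139. Of the 4 tested, 4 had a positive difference and 0 were called (median 0.43). The 4 NK markers gave 368 UMIs in Klf2-high barcodes, 356 of them in 1 barcode, and 48 in the other B cells. The 9 T cell markers gave 127 and 337, the 4 plasmacytoid dendritic markers 129 and 465 and the 5 red cell markers 58 and 6109. Of these lists only 1 T cell marker was tested, and it was not called.

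Across 4 equal bins of the score, from lowest to highest, several groups changed stepwise and not at the top alone. As a description with no test, the median level of Itgb7 was 22.2, 33.9, 51.8 and 104 raw CPM, that of S1pr4 14.7, 33.2, 41.7 and 78.3, and that of Klf3 63.1, 89.2, 134 and 189. Cr2 ran in the opposite order, at 828, 677, 599 and 325. The medians of these genes therefore differed between neighbouring bins too. Single mice broke the order, such as S1pr4 in LDHA-sufficient mouse 3 at 14.7, 73.4, 42.0 and 90.2. The trafficking sum was 1329, 1471, 1974 and 2291 and the marginal zone sum 1856, 1597, 1333 and 1075. The medians of other lists levelled off before the top: follicular markers were at 1505, 1838, 2569 and 2678, and MYC and nucleolar genes at 6159, 5276, 4078 and 4027. The median G2 and M phase sum had no order, at 3382, 4788, 3159 and 3282. In LDHA-sufficient mice 1 and 2 this sum fell stepwise, from 10216 to 2308 and from 11045.5 to 4631, but not in the other mice. Median UMIs per barcode were 4267.5, 4482, 3809 and 3680 in the same bins.

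**Figure D3:**
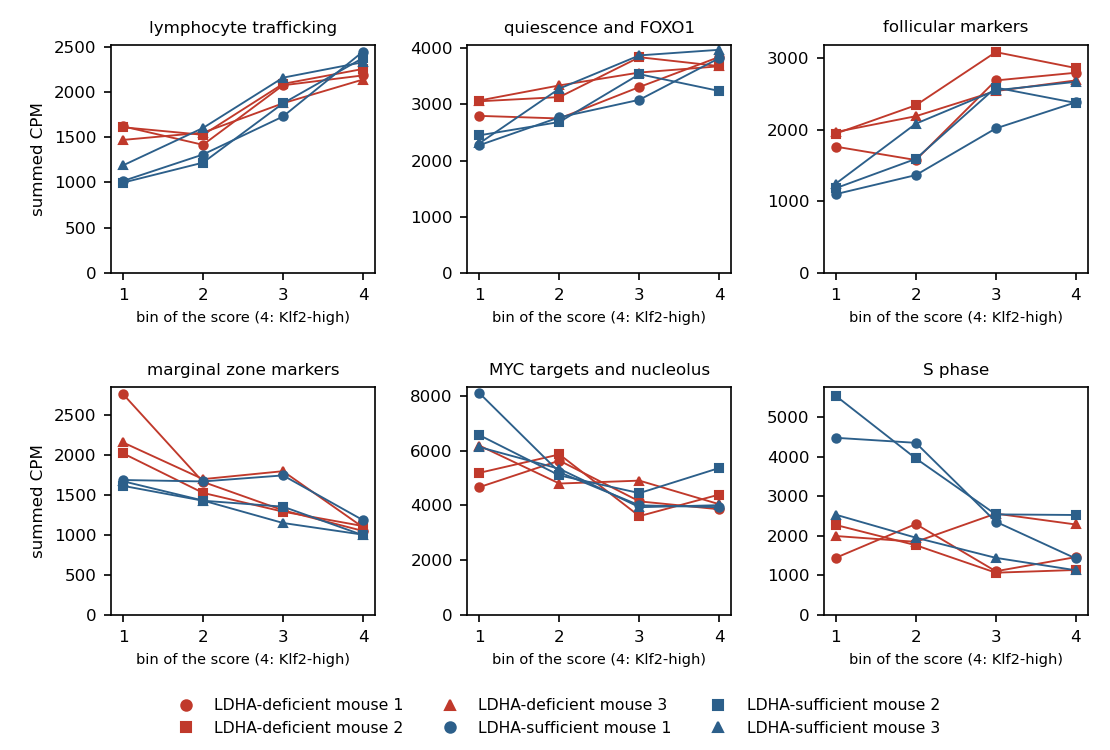
Summed level of 6 gene lists, in raw CPM, in each of 4 equal bins of the score from lowest (1) to Klf2-high (4), with 1 line per mouse. Marginal zone genes are lowest in bin 4, at 999 to 1187, whereas the medians of follicular markers and MYC targets change little between bins 3 and 4. Single mice move either way for MYC targets, from 3610 to 4400 in LDHA-deficient mouse 2 and from 4907 to 4044 in LDHA-deficient mouse 3.

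The 6 genes of the score did not mark 1 set of barcodes. When the top 25% was taken by Klf2, Tsc22d3 and Ypel3 alone (the Klf2 trio) or by S100a10, Emp3 and Vim alone (the S100a10 trio), 473 barcodes passed each time and 179 were shared, which is 37.8% of each set. Each set was the top 25% of all barcodes. A Klf2-high barcode held a median of 7 UMIs of the 6 genes. How far the sampling of so few molecules lowers the overlap was not tested. Of the Klf2-high barcodes, 340 were in the first set and 311 in the second, 179 in both and 1 in neither.

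With the Klf2 trio alone, genes of the cell cycle and of growth fell. Its top 25% had 561 genes higher (7.56% of 7416) and 608 lower (8.2%) than the rest. Of 38 G2 and M phase genes 32 fell (median -1.69), of 33 S phase genes 27 fell (median -1.29), of 26 MYC and nucleolar genes 21 fell (median -0.68), and of 80 oxidative phosphorylation genes 30 fell (median -0.31). Mki67 averaged 65.1 ± 28.2 CPM in the top 25% by the Klf2 trio and 543 ± 375 CPM in the rest (SD, n = 6 mice), and fell by 2.89 on the log2 scale. Top2a, the topoisomerase of mitotic chromosomes, averaged 47.2 ± 37.1 CPM against 327 ± 186 CPM. Follicular markers rose in 6 of 7 (median 0.69), quiescence genes in 13 of 25 (median 0.48) and MHC class II genes in 8 of 10 (median 0.32). Cd55, the complement decay accelerating factor, rose by 1.44 ± 0.11, at 717 ± 97.4 CPM against 272 ± 71.3 CPM.

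The S100a10 trio gave fewer calls. In its top 25% 99 genes were higher (1.34% of 7369) and 41 lower (0.556%). Of 37 S phase, 41 G2 and M phase and 26 MYC and nucleolar genes, 0 were called by the adjusted edgeR test, with medians of -0.35, -0.12 and -0.20. Dut, which is outside these lists, fell by 0.61 (SE 0.11, adjusted p 0.00388), while Uhrf1, Dbf4, Hells and Rfc3 were not called. Alox5ap, the activator of 5-lipoxygenase, averaged 62.2 ± 41.0 CPM in the top 25% by the S100a10 trio and 6.14 ± 3.21 CPM in the rest (3.31 ± 0.28). The interferon-induced membrane protein gene Ifitm3 rose by 2.49, the galectin Lgals1 by 2.10 and the arginine synthesis enzyme Ass1 by 1.83. The B-1 markers Spn (1.39) and Bhlhe41 (1.31, 43.9 ± 12.9 CPM against 19.0 ± 7.86 CPM), both rose, while Ahr, the last of the 3 tested, was at -0.26 and not called. With the Klf2 trio Spn had a difference of -0.11 and Bhlhe41 of -0.14, and neither was called. Of 4 myeloid markers, 1 rose in this set (median 2.30), and the part of these markers in the rises of Alox5ap, Ifitm3 and Lgals1 was not tested. Falls were led by the germinal centre genes Mef2b (-2.03) and Rgs13 (-1.68).

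Some genes moved with both trios. Itgb7 rose by 1.15 ± 0.16 with the Klf2 trio and 1.12 ± 0.16 with the S100a10 trio, Myadm by 1.62 and 1.60, and Klf3 by 1.31 and 0.88. Trafficking genes rose in 6 of 14 with each trio, with 1 fall with the Klf2 trio. Marginal zone markers fell in 6 of 8 and 4 of 8, and germinal centre markers in 4 of 7 and 6 of 9. Cr2 fell by 0.55 with the Klf2 trio and by 0.95 with the S100a10 trio. Differences between the trios were not tested, since the 2 sets share barcodes and mice.

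**Figure D4:**
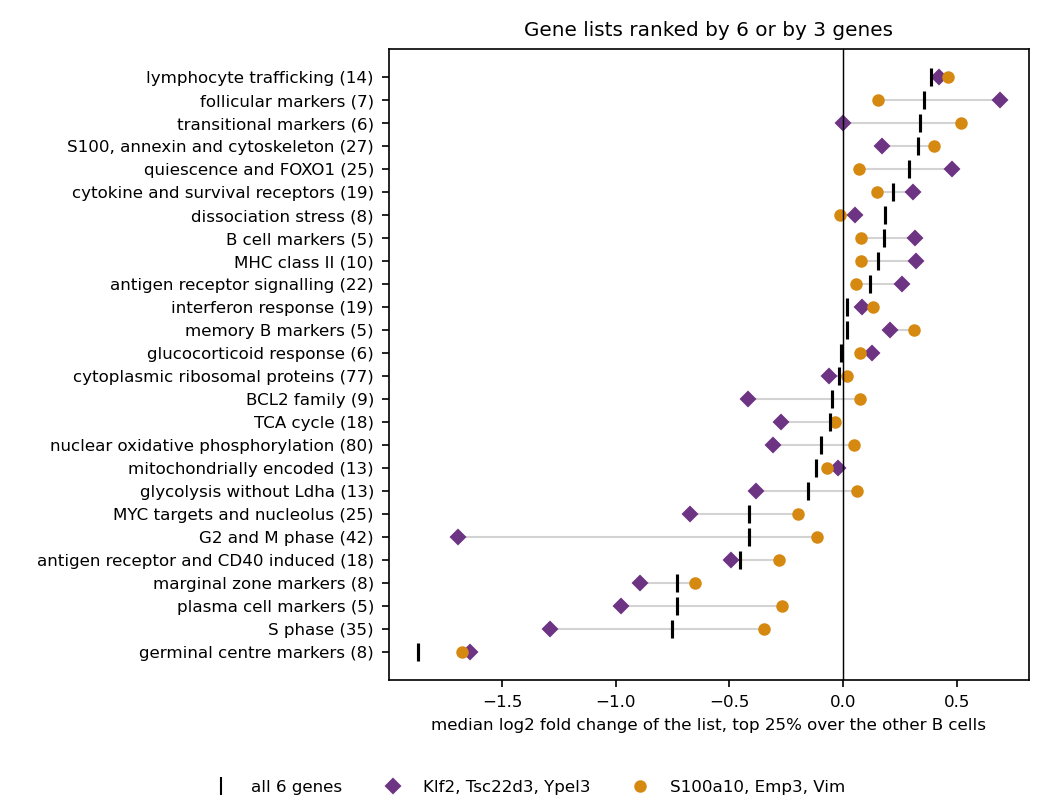
Median log2 difference of each gene list, top 25% over the other B cells, when barcodes are ranked by all 6 genes (black bars), by Klf2, Tsc22d3 and Ypel3 (purple) or by S100a10, Emp3 and Vim (orange), with the number of genes tested under all 6 in brackets. G2 and M phase genes lie at -1.69 with the Klf2 trio and -0.12 with the S100a10 trio, whereas trafficking and germinal centre lists lie close together.

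Heavy chains gave a readout that the score did not use. A heavy chain was found in 305 Klf2-high barcodes and in 882 of the other B cells, an average of 64.2% and 62.2% of barcodes per mouse. Of the Klf2-high chains, 225 were IgM, 67 IgD, 6 IgA and 7 IgG, and 278 had a V segment identical to germline. Of the chains in the other B cells, 613 were IgM, 206 IgD, 30 IgA and 33 IgG, and 729 were identical to germline. A V identity under 0.99, the trace of somatic hypermutation, was found in 9 Klf2-high chains and 85 others. Per mouse the share was 2.13%, 1.45% and 2.94% in Klf2-high chains of LDHA-deficient mice 1, 2 and 3, and 6.25%, 1.96% and 3.57% in those of LDHA-sufficient mice 1, 2 and 3. In the other B cells it was 5.43%, 4.40% and 6.36% in LDHA-deficient mice and 14.4%, 20.6% and 4.55% in LDHA-sufficient mice.

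The Klf2-high share was the lower one in 6 of 6 mice, by a mean of 6.24 percentage points (3.05% ± 1.74 against 9.29% ± 6.70, SD, n = 6 mice). The exact two-sided sign-flip permutation p was 0.03125, the smallest that 6 pairs allow, and 0.167 after adjustment over the 8 paired values, so it did not pass. Without barcodes with a short list of germinal centre or cycling markers the mean difference was -2.49 points, and without the heavy chains of the largest clone -4.83 points. Switched isotypes made up 4.26% ± 2.28 of Klf2-high chains and 6.81% ± 4.24 of the others, and chains in clones of 2 or more barcodes 4.84% and 9.73%. Neither passed (adjusted exact p 0.167 and 0.25). Mitochondrial UMIs made up 2.24% and 2.43%, genes per barcode were 1617 and 1749, and mean V identity was 0.999 and 0.998, with adjusted exact p of 0.167 each.

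The clone numbers that the authors deposited with the heavy chains placed few Klf2-high barcodes together, and these clones crossed mice. The junctions of the clones with the most Klf2-high barcodes show what such a clone holds. All are IgM chains from the heavy chain locus on chromosome 12, 5′ to 3′, and capitals mark bases that no germline segment in the deposited alignment accounts for. The first clone joins IGHV9-3 to IGHJ1 with 36 bases and held 3 Klf2-high barcodes and 2 of the other B cells from 3 mice. Its first junction was read in 2 Klf2-high barcodes, 1 of LDHA-deficient mouse 3 and 1 of LDHA-sufficient mouse 1.
IGHV9-3, Klf2-high, 2 mice: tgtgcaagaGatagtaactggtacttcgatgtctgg
IGHV9-3, Klf2-high, LDHA-deficient mouse 1: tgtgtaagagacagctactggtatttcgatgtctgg
IGHV9-3, other B cells, LDHA-sufficient mouse 1: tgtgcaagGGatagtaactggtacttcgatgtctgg
IGHV9-3, other B cells, LDHA-deficient mouse 1: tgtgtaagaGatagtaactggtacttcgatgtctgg
The V identity of the Klf2-high chains was 0.997, against 0.966 to 1 in the other B cells. The second clone joins IGHV2-2 to IGHJ4 with 39 bases and held 2 Klf2-high barcodes and 1 of the other B cells.
IGHV2-2, Klf2-high, LDHA-deficient mouse 1: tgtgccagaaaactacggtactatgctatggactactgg
IGHV2-2, Klf2-high, LDHA-deficient mouse 2: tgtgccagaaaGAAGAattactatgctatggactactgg
IGHV2-2, other B cells, LDHA-deficient mouse 1: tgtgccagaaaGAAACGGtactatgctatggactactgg
Both clones joined barcodes of different mice and several different junctions with at most 7 such bases. The shared clone number of these 2 clones is therefore no measure of descent from 1 cell. The junctions of other clones were not examined.

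Within Klf2-high barcodes, LDHA-deficient mice were compared with LDHA-sufficient mice on 6 sums (edgeR, 5283 genes). Ldha, the targeted gene (chr7:46841475-46855627, plus strand, mm10), was at 78.1, 60.5 and 89.0 CPM in LDHA-deficient mice, against 194, 293 and 181 CPM in LDHA-sufficient mice. The genotypes did not overlap (75.9 ± 14.4 against 223 ± 61.0 CPM, SD, n = 3 each), and Ldha fell by 1.61 (SE 0.22, adjusted p 9.96e-05). In the other B cells it was 63.7 ± 13.2 CPM in LDHA-deficient mice and 214 ± 40.2 CPM in LDHA-sufficient mice, a fall of 1.76 (SE 0.17). The hashtag labels thus matched the targeted transcript in Klf2-high barcodes of 6 of 6 mice.

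Beside Ldha, 1 gene passed, 2 of 5283 in all (0.0379%), where 270 had an unadjusted p under 0.05 and 580 (11%) showed no overlap of the genotypes. Tmsb4x, the abundant actin-sequestering thymosin beta 4 on chromosome X, which has near-identical processed copies in the genome, was at 4467, 5695 and 4081 CPM in LDHA-deficient mice, against 7763, 6858 and 7160 CPM in LDHA-sufficient mice. It fell by 0.61 (SE 0.10, adjusted p 0.00759), and its highest LDHA-deficient mouse lay below its lowest LDHA-sufficient mouse. In the other B cells it was 4321 ± 631 CPM in LDHA-deficient mice and 4450 ± 712 CPM in LDHA-sufficient mice (-0.04 ± 0.14). The difference between these effects did not pass (-0.59, adjusted p 0.24). The Tmsb4x call was lost without LDHA-deficient mouse 1 (adjusted p 0.127) or 3 (adjusted p 0.0724), and with either trio (-0.36 with the Klf2 trio, -0.48 with the S100a10 trio).

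The other B cells had 218 genotype calls in 8870 genes (2.46%), 37 higher (0.417%) and 181 lower (2.04%) in LDHA-deficient mice. The Klf2-high sums are shallower, which bears on how many genes can pass. Of the 181 lower genes, 92 were tested in Klf2-high barcodes and 1, Ldha, passed there. Their median log2 difference was -0.03 in Klf2-high barcodes and -0.81 in the other B cells, where the calls were made on these values. For G2 and M phase genes, 0 of 29 were called within Klf2-high barcodes (median 0.015), against 31 falls of 50 in the other B cells (median -1.54). For S phase genes, 0 of 23 were called within Klf2-high barcodes (median -0.23), against 4 falls of 43 in the other B cells (median -1.004). Within Klf2-high barcodes the S100, annexin and cytoskeletal list had a negative difference in 24 of 26 genes (median -0.20), Tmsb4x among them as the 1 call. The median over all 5283 genes was -0.004. Other lists leaned the same way with 0 calls. Among them, cytoplasmic ribosomal proteins were negative in 71 of 77 genes (median -0.09), nuclear oxidative phosphorylation in 57 of 77 (-0.13) and trafficking in 11 of 14 (-0.14). Of the marker lists, 3 of 3 myeloid (median -0.59), 2 of 2 B-1 (-0.80) and 5 of 5 transitional markers (-0.61) were negative. So were 4 of 6 marginal zone (-0.11), 3 of 4 memory B (-0.09) and 4 of 5 B cell markers (-0.05). Follicular markers were negative in 3 of 7 (0.03) and plasma cell markers in 2 of 4 (0.10), and the 1 germinal centre marker tested was positive (0.52). None of these lists had a call, and their part in the S100, annexin and cytoskeletal difference was not tested.

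The genotype effect itself differed between Klf2-high barcodes and the other B cells for 1 of 8230 genes (0.0122%). H2afx, the histone variant phosphorylated at DNA breaks, averaged 130 ± 4.26 CPM in LDHA-deficient mice and 118 ± 32.2 CPM in LDHA-sufficient mice within Klf2-high barcodes (0.13, adjusted p 0.981). In the other B cells it averaged 83.9 ± 15.6 CPM in LDHA-deficient mice and 232 ± 57.9 CPM in LDHA-sufficient mice (-1.47 ± 0.20, adjusted p 0.00528). The difference of the effects was 1.59 ± 0.27 (edgeR interaction, adjusted p 0.0475). It was 0.07 without barcodes with a short list of germinal centre or cycling markers (adjusted p 0.999), and DESeq2 called 0 genes.

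**Figure D5:**
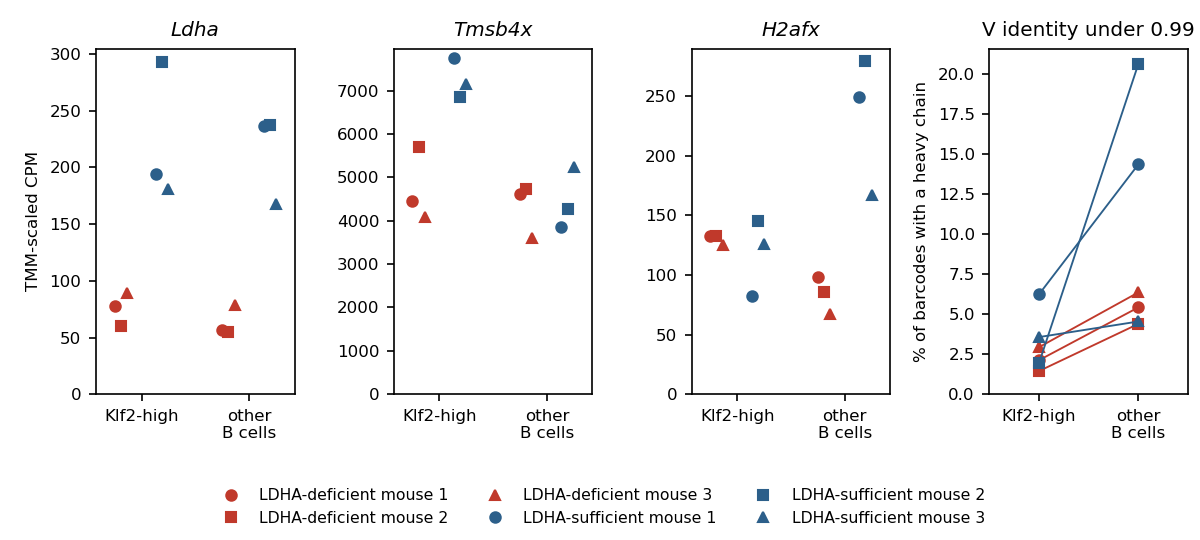
TMM-scaled CPM of Ldha, Tmsb4x and H2afx in LDHA-deficient mice (red, left) and LDHA-sufficient mice (blue, right) within Klf2-high barcodes and within the other B cells, and the percentage of heavy chains with a V identity under 0.99 in both sets, with lines joining the values of 1 mouse. Ldha is lower in LDHA-deficient mice in both sets, Tmsb4x does not overlap between genotypes in Klf2-high barcodes, and the V identity share is lower in Klf2-high barcodes of 6 of 6 mice.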

How the data were processed

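The deposited expression matrix holds UMI counts for 32285 genes in 2836 barcodes (18170115 UMIs), and the authors gave hashtag UMI counts for 2831 of these barcodes, and a table of 2241 heavy chain contigs from 2014 barcodes, 1730 of them in the expression matrix. In that table the V identity to germline is a fraction per the file headers, and junction, isotype and clone number are other values deposited by the authors. Cell Ranger 6.0.0, Seurat 4.2.1 and mm10 are named in the submitters' processing notes, the header of the count file names Cell Ranger 6.0.2, and the sources used here do not name the tool that set the clones.

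A barcode was given to a mouse if its largest of 6 hashtag counts was at least 20 and at least 3 times the second, which removes doublets of different mice but not of 1 mouse; no other doublet caller was run and no further cell filter was applied. Raw counts were summed per mouse and set and tested with edgeR 4.0.16 in R 4.3.3 (quasi-likelihood, TMM, filterByExpr, robust, Benjamini-Hochberg over all genes tested, adjusted p under 0.05). The mouse was a block in the comparison of Klf2-high barcodes with the other B cells, since both sums come from the same animal. Adjusted p-values in the text come from edgeR unless an exact test is named. Hashtag numbers pair no mice across genotypes. The fits were tested on simulated counts. HTODemux (Seurat 5.3.0) and DESeq2 1.42.0 served as alternatives, together with other cell filters, scoring, normalization and the omission of each mouse.

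The genes named are Ldha, the 6 genes of the score, the 12 largest rises and falls past the threshold with the same direction in 6 of 6 mice and a mean of at least 30 CPM (immunoglobulin and T cell receptor segments, sex-linked, ribosomal, mitochondrial and unnamed genes left out), up to 4 genes per list by smallest p, and genes past the threshold between genotypes. Exceptions are stated. The 32 lists comprise the cell type markers and the pathway lists, and each is reported. A few genes that the naming rule picks are not reported here by name, but stay in the counts of their lists. Members and lists were chosen with earlier results of these data known. Gene coordinates are those of GENCODE vM21 on mm10, and promoter windows are from RefSeq on GRCm38.p6.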

Additional observations from a re-analysis of the deposited data

Results flagged for a closer look

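In 61 values, each looked at over the 6 mice, 3 had 1 mouse far from the other mice, where chance gives about 1 in 20. Gucd1 was 2.09 higher (log2) in Klf2-high barcodes than in the other B cells of LDHA-sufficient mouse 1, against 0.59 to 1.15 in the other mice. Uhrf1 was at -3.42 in the same mouse, against -1.13 to -0.36. The median of the B-1 markers was -1.82 in LDHA-deficient mouse 1, against 0.51 to 1.04.

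The median of the memory B markers lay below 0 in each LDHA-deficient mouse (mean -0.21) and above 0 in each LDHA-sufficient mouse (mean 0.37), a difference of -0.58 that was not tested. For H2afx the genotype effect in Klf2-high barcodes exceeded that in the other B cells by 1.59 on the log2 scale (0.13 and -1.47), by the edgeR interaction term.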

How the results depend on the processing

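With the Klf2 trio alone, 561 genes were higher and 608 lower in the top 25%, and with the S100a10 trio alone 99 and 41. Removing barcodes by long lists of germinal centre and cycling markers left 8 and 4, and by long lists of markers of other cells 8 and 5. Both lists take most barcodes and leave few genes to test. Shorter lists of germinal centre, cycling and marginal zone markers, chosen after seeing the data, left 51 and 31. DESeq2 called 89 and 26, the fit with no replicate block 120 and 32, and no filter on low counts 334 lower. Leaving out each mouse gave 85 to 174 higher and 28 to 126 lower. The 12 largest rises kept their call in 219 of 240 refits and the falls in 158 of 226, and 0 reversed. Refits that did not test a gene are not counted. The falls kept 11 of 12 calls with HTODemux, but 4 of 12 with the S100a10 trio and 3 of 12 without LDHA-sufficient mouse 2. Without barcodes with the short list of germinal centre or cycling markers they kept 2 of 8. With barcodes of the short marginal zone list also removed, the falls kept 1 of 6 and the rises 5 of 12. Of other named genes, Tagln2 (-0.041) and Spn (-0.11) reversed with the Klf2 trio, Ighd without barcodes of other cells (-0.11) and without those of the shorter 3 lists (-0.029), and Cd24a without barcodes of other cells (0.056).

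Within Klf2-high barcodes the 2 genotype calls became 15 with HTODemux, 31 with thinned scoring, 4 with the Klf2 trio, 1 under each long list, 7 and 6 under the shorter lists, 7 without the top 10% by UMIs, 25 with no filter, 4 with DESeq2, and 2 to 6 with each mouse left out. The 1 call for the difference of effects became 6 with HTODemux, 4 with thinned scoring, 0 with the top 25% taken within each mouse, 7 and 6 with the trios, 2 without germinal centre and cycling barcodes, 21 without a short list of markers of other cells, 3 and 6 under the other shorter lists, 16 without the top 10%, 90 with no filter, 0 with DESeq2, 0 without TMM, and 0 to 57 with each mouse left out. Ldha was at -1.39 within Klf2-high barcodes without barcodes of other cells, and at -1.18 in the other B cells without germinal centre and cycling barcodes, neither past the threshold.

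The share of Klf2-high barcodes, LDHA-deficient minus LDHA-sufficient, was -1.07 points with HTODemux, -0.0186 thinned, -0.0944 within mice, -0.268 with the Klf2 trio, -3.09 and -4.95 under the long lists, -5.13 and -4.25 under the shorter ones, and -1.43 to 1.89 with each mouse left out. Among paired values, the switched share turned to 0.113 with the S100a10 trio, 4.73 without germinal centre and cycling barcodes and 3.70 without barcodes of other cells. The last setting also turned genes per barcode (5.83), mean V identity (-0.000283) and clone membership (0.536). The cause of these changes was not tested. Depth limits the genotype tests: a Klf2-high sum held at most 537269 UMIs.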

Other observations

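Cr2, which fell in Klf2-high barcodes, also separated the genotypes. Within Klf2-high barcodes it averaged 449 ± 56.0 CPM in LDHA-deficient mice and 306 ± 17.2 CPM in LDHA-sufficient mice (SD, n = 3 each). The ranges did not overlap, but the log2 difference of 0.54 ± 0.15 did not pass the edgeR test (adjusted p 0.364). In the other B cells Cr2 averaged 892 ± 79.5 CPM in LDHA-deficient mice and 541 ± 39.8 CPM in LDHA-sufficient mice (0.72 ± 0.12, adjusted p 0.00411). The fall of Cr2 in Klf2-high barcodes was thus seen at both levels.

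The chemokine gene Ccl4, chosen after its values were seen, had 163 UMIs in Klf2-high barcodes and 32 in the other B cells. Of the 163, 160 came from 1 barcode that also held 257 of the 258 UMIs of Gzma, a granzyme of cytotoxic lymphocytes. The same barcode held 32 of the 33 UMIs of Ccl3. The Cd79a rule therefore let in at least 1 barcode with cytotoxic transcripts.

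Ighm, the IgM constant region, had median levels of 5991, 3274, 3056 and 2947 raw CPM from the lowest to the highest of 4 equal bins of the score, and the summed plasma cell markers 2338, 597, 586 and 425. Single mice departed from these medians. The plasma cell markers of LDHA-sufficient mouse 1 ran at 1437, 4660, 3091 and 418, and Ighm of LDHA-deficient mouse 2 at 2227, 2463, 2482 and 2522.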
